A study of Mus musculus with 4 samples.

Results

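The Zic genes encode a family of zinc finger transcription factors, and 4 of them, Zic1, Zic2, Zic4 and Zic5, were measured here by 8 probe sets among the 45101 on the array. A probe set was taken where the array's annotation gave it 1 of these symbols and no other, which left 2 probe sets for Zic1, 1 for Zic2, 2 for Zic4 and 3 for Zic5, and the 4 genes stood among 18194 with a probe set of their own. All were followed in 2 populations of mouse embryonic stem cell (ESC) derived tissue, Rax::GFP+ and Rax::GFP- cells, sorted by fluorescence at culture day 4.5 from aggregates grown by SFEBq, a serum-free floating culture in which dissociated ESCs quickly reaggregate and turn into neuroectoderm. Both populations came from the same reporter line, in which green fluorescent protein (GFP) marks cells that express Rax, the eye field homeobox gene. The culture medium held no added growth factor, no treatment separated the groups, and each RNA sample was a pool of many aggregates. There were 2 arrays for each population, described as biological duplicates. A difference between the groups is one between cells sorted from such aggregates by Rax::GFP, with whatever cell types each population held.

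Zic proteins carry C2H2 zinc fingers related to those of the Gli and Glis factors, and they act in the early neural plate, at its border with the surface ectoderm, in the dorsal neural tube and in the neural crest. Their genes lie in head-to-head pairs, Zic1 beside Zic4 and Zic2 beside Zic5, which is why the pairs are set against each other below. Zic1 is known for its work with Pax3 at the neural plate border and for its part with Zic4 in cerebellar growth, Zic2 for forebrain midline formation, where its loss gives holoprosencephaly, and Zic5 for neural tube closure and neural crest formation.

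In the RefSeq gene table (GRCm38.p6) Zic1 and Zic4 were neighbours on chromosome 9, and Zic5 and Zic2 lay on chromosome 14 with the long noncoding RNA 2610035F20Rik between them. RefSeq promoter windows were matched for 3 of the 4 genes, Zic1, Zic4 and Zic5. The 250 bases before the start site are shown for 1 gene of each pair, Zic5, which differed between the populations, and Zic1, which did not pass the test, on the gene's own strand and with each CpG in capitals. The Zic5 window is chr14:122465659-122465908 on the minus strand and the Zic1 window is chr9:91365769-91366018 on the minus strand.
Zic5: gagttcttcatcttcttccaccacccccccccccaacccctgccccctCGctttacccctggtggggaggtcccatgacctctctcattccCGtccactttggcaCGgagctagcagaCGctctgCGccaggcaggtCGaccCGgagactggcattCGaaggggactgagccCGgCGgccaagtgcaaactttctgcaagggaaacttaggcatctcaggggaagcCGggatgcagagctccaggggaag
Zic1: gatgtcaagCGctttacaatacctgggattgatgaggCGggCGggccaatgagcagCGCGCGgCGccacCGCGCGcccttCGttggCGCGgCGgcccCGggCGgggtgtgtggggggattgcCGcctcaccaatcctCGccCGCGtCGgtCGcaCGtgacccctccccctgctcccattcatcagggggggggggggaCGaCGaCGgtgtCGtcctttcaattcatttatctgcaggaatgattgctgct
The Zic5 window held 11 CpGs and 62.4% G or C, the Zic1 window 27 CpGs and 66.0%, and the Zic4 window 4 CpGs and 44.4%, beside medians of 6.0 CpGs and 52.4% over 32851 windows of the same length. The Zic4 window, chr9:91368722-91368971 on the plus strand, lies inside the gene's span of 91365631 to 91389351. It therefore does not describe the outermost start of Zic4. Short motifs were searched on both strands: the GC box GGGCGG, the TATA box TATAAA, the E-box CACGTG, GACCACCC from the Gli site, and the Tcf/Lef core CTTTGA. The Zic1 window had 2 matches to the GC box, present in 32.7% of all windows, and 1 to the E-box, present in 6.02%. The windows of Zic5 and Zic4 had no match to any of these letters, and TATAAA, GACCACCC and CTTTGA, held by 12.4%, 0.703% and 13.8% of all windows, were in none of the 3 Zic windows.

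The sorted populations were first checked against their label. Rax itself had RMA values of 10.70 and 10.86 in the GFP+ samples and 8.58 and 8.88 in the GFP- samples, a difference of -2.05 on the log2 scale (limma, adjusted p = 0.00785). RMA is a summary of the probes of a probe set on a log2 scale after the arrays are brought to a common distribution, so that 1 unit is a doubling, and every difference below is GFP- minus GFP+. Of the 5 rostral eye field markers, which include Rax, 4 were lower in GFP- cells and none was higher. Their summed log2 level, Rax included, was 54.1 and 54.4 in GFP+ samples and 47.2 and 47.9 in GFP- samples. The cells were sorted by a Rax reporter, so the part of Rax in both is no separate check. At an adjusted p under 0.05, GFP- cells had the higher value for 3.64% of all probe sets and the lower value for 3.82%. With 2 arrays in each group an exact permutation test cannot go below p = 0.333, so the calls rest on the spread that limma shares among probe sets.

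Zic5 was higher in GFP- cells, by 2.77- to 3.10-fold over its 3 probe sets, and it was the one Zic gene to pass the test. Probe set 1456219_at read 9.29 and 9.25 in the GFP+ samples and 10.83 and 10.81 in the GFP- samples. Both GFP- samples lay above both GFP+ samples, and the replicates of a population differed by at most 0.04. The difference was 1.55 ± 0.07 (SE, n = 2 and 2), with a 95% interval of 1.36 to 1.74, which is 2.93-fold (limma, adjusted p = 0.00551). The table cannot tell whether fewer cells of the GFP+ population held Zic5 RNA or each cell held less of it, because every sample is bulk RNA.

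The other Zic5 probe sets gave the same order of the populations. Probe set 1456140_at read 9.16 and 9.14 in GFP+ samples and 10.56 and 10.69 in GFP- samples, a difference of 1.47 ± 0.08 with an interval of 1.25 to 1.69 (adjusted p = 0.00648). Probe set 1425666_at, the dimmest of the 3, read 5.50 and 5.42 in GFP+ samples and 7.08 and 7.11 in GFP- samples, a difference of 1.63 ± 0.07 with an interval of 1.43 to 1.83 (adjusted p = 0.00551). The 3 intervals overlapped one another, so the probe sets did not disagree on the size of the change. Only 0.539%, 0.632% and 0.461% of all probe sets had a larger rise than 1456219_at, 1456140_at and 1425666_at. When the GFP- replicate 1 or the GFP- replicate 2 array was left out, all 3 differences stayed between 1.40 and 1.64 but none passed, with adjusted p of 0.0937 to 0.107, and no probe set of the whole array passed in limma, although 7704 and 7697 had an unadjusted p under 0.05. The Zic5 calls were also lost, at adjusted p of 0.0567 to 0.0591, when the replicate number was added as a replicate block.

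Zic2, the partner of Zic5 on chromosome 14, stood well above the array's median in both populations. Its probe set 1421301_at read 10.78 and 10.90 in GFP+ samples and 11.11 and 11.25 in GFP- samples. Both GFP- samples lay above both GFP+ samples, as they did for 32.5% of all probe sets. The difference was 0.34 ± 0.09 with an interval of 0.09 to 0.59, or 1.27-fold, and it did not pass (unadjusted p = 0.0176, adjusted p = 0.107 in limma), although it did where the prior variance was allowed to follow intensity (adjusted p = 0.0224). The upper end of the Zic2 interval lay below the lower end of every Zic5 interval.

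**Figure D1:**
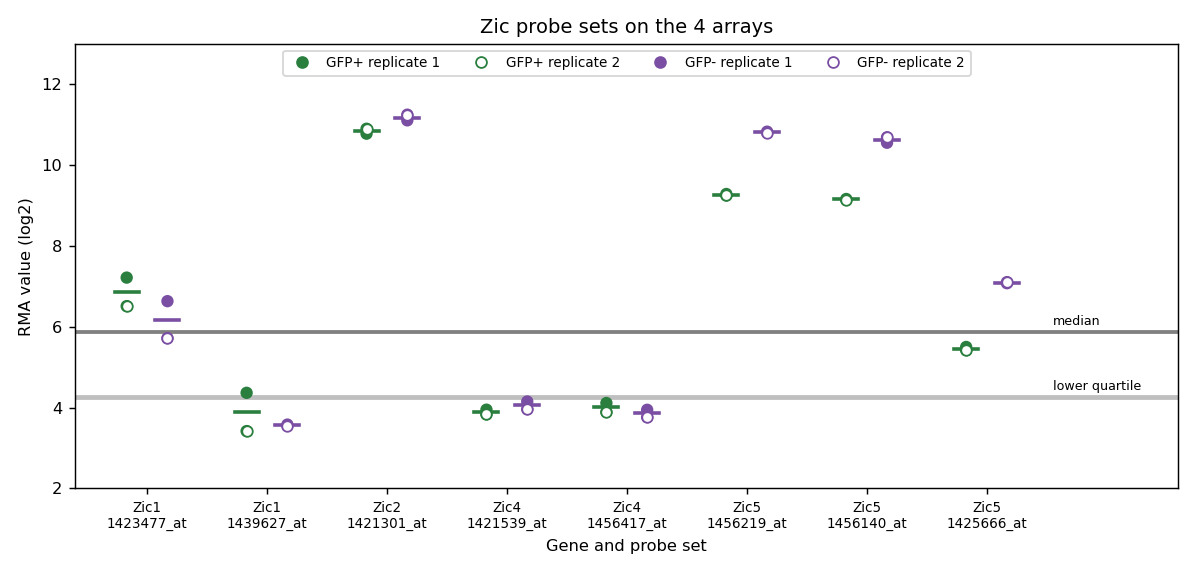
RMA values (log2, vertical axis) of the 8 Zic probe sets (horizontal axis) on the 4 arrays; green is GFP+ and purple GFP-, filled circles are replicate 1, open circles replicate 2 and short bars the group means, and the grey bands span the median and the lower quartile of all probe sets over the 4 arrays. The 3 Zic5 probe sets separate the populations by 1.47 to 1.63, and both Zic4 probe sets sit under the lower quartile.

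Zic1 had its higher mean in GFP+ cells, but its duplicates differed by as much as the populations did. Probe set 1423477_at read 7.22 and 6.51 in GFP+ samples and 6.63 and 5.72 in GFP- samples. The populations overlapped, since GFP- replicate 1 lay above GFP+ replicate 2. The difference was -0.69 ± 0.39 with an interval of -1.73 to 0.35 (limma, adjusted p = 0.345). In this 2-group model the samples do not separate a fall of more than 3-fold from no change. In both populations the array numbered 1 was the higher, by 0.71 in GFP+ and 0.92 in GFP- cells. Leaving out GFP+ replicate 1 gave -0.34 and leaving out GFP+ replicate 2 gave -1.04, while the values were -1.15 when GFP- replicate 1 was dropped and -0.23 when GFP- replicate 2 was, and none of these passed. Taken between arrays of the same number the differences were -0.58 and -0.79. With the replicate number added as a block, the same difference of -0.69 had an adjusted p of 0.102 in limma and did not pass. Whether the numbers pair the samples is not given, as described with the processing.

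The other Zic1 probe set, 1439627_at, was dim, with 4.37 and 3.42 in GFP+ samples and 3.58 and 3.55 in GFP- samples. It lay under the array's median on all 4 arrays and under the lower quartile on 3. The high GFP+ replicate 1 value set its mean difference of -0.33 ± 0.32, with an interval of -1.18 to 0.53 (adjusted p = 0.583). Without GFP+ replicate 2 the difference was -0.80 (adjusted p = 0.0336), and without GFP+ replicate 1 it turned to 0.15 (adjusted p = 0.48).

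Zic4, the partner of Zic1 on chromosome 9, lay under the lower quartile of all values on each of the 4 arrays by both of its probe sets. The deposited table holds no detection calls, so whether the gene was above background cannot be said. Probe set 1421539_at read 3.95 and 3.83 in GFP+ samples and 4.15 and 3.96 in GFP- samples, a difference of 0.16 ± 0.10 with an interval of -0.10 to 0.43 (limma, adjusted p = 0.379). Probe set 1456417_at read 4.11 and 3.89 in GFP+ samples and 3.95 and 3.76 in GFP- samples, a difference of -0.15 ± 0.12 with an interval of -0.46 to 0.17 (adjusted p = 0.492). No Zic probe set had both GFP- samples below both GFP+ samples, which held for 24.9% of all probe sets. The 2 Zic4 probe sets had opposite signs, and neither differed by more than 0.46 in either direction within its interval.

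**Figure D2:**
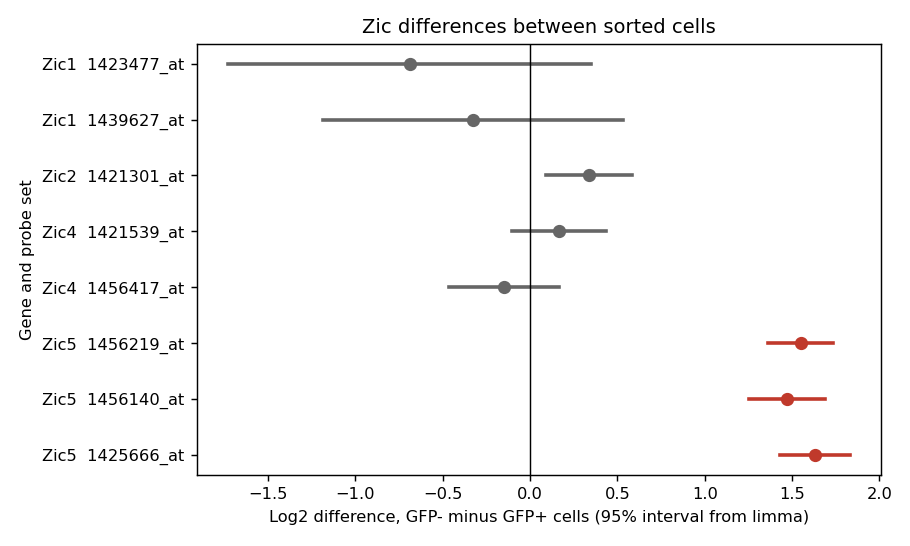
Log2 difference between GFP- and GFP+ cells (horizontal axis) for each Zic probe set (vertical axis), with points for the estimate and lines for its 95% interval from limma; red marks an adjusted p under 0.05. The 3 Zic5 intervals lie between 1.25 and 1.83, and the intervals of Zic1 and Zic4 include 0.

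The pairs were then compared on each array. For this the probe sets of a gene were averaged, each gene was centred on its mean over the 4 arrays, and the 2 genes of a pair were averaged. The Zic2 and Zic5 score was -0.49 and -0.45 in GFP+ samples and 0.43 and 0.52 in GFP- samples, a difference of 0.94. The Zic1 and Zic4 score was 0.37 and -0.12 in GFP+ samples and 0.04 and -0.29 in GFP- samples, a difference of -0.25. The first score was higher in both GFP- samples, whereas the second overlapped, with GFP- replicate 1 above GFP+ replicate 2. The second score rests largely on dim probe sets: both of Zic4 lay under the lower quartile on 4 arrays and Zic1 1439627_at on 3. The brighter Zic1 1423477_at alone had -0.69. The difference between the pairs was 1.19, and 1.25 and 1.14 between arrays of the same number. No p is given for scores over chosen genes.

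By gene means, Zic5 was higher by 1.55 and Zic2 by 0.34, so that the change of Zic5 exceeded that of its neighbour by 1.21. Zic1 had -0.51 and Zic4 0.01, a gap of -0.52 that was not tested and that the spread of Zic1 does not separate from 0. Most of the distance between the pairs thus came from Zic5. Averaging the probe sets before the fit left the call of Zic5 (adjusted p = 0.000691) and gave an adjusted p of 0.0588 for Zic2, 0.32 for Zic1 and 0.968 for Zic4.

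**Figure D3:**
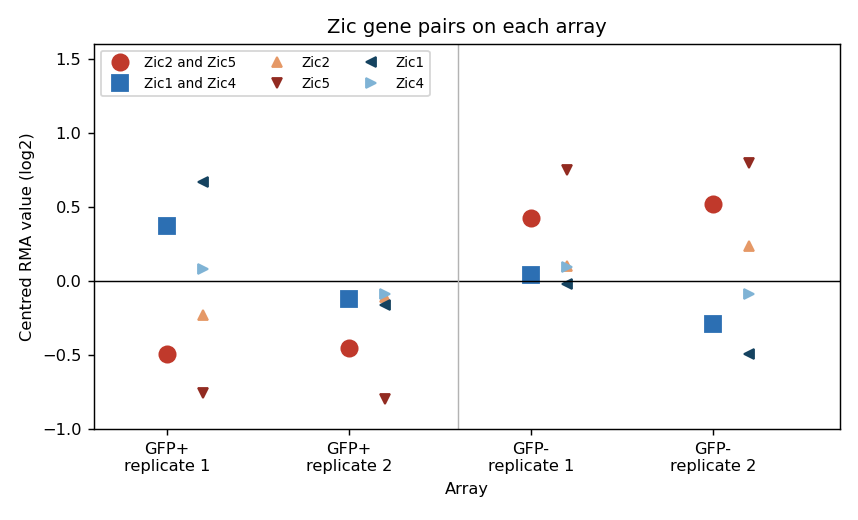
Centred RMA values (log2, vertical axis) on each of the 4 arrays (horizontal axis); large symbols are the means of the gene pairs and small symbols the single genes, each gene averaged over its probe sets. The Zic2 and Zic5 mean goes from -0.49 and -0.45 in GFP+ samples to 0.43 and 0.52 in GFP- samples, while the Zic1 and Zic4 mean overlaps between the populations.

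The genes nearest the pairs were read from the same fit, 5 with a probe set of their own on each side and any between. Those around Zic2 and Zic5 lay up to 795 kilobases (kb) away, and those around Zic1 and Zic4 861 to 1494 kb away. Of the 11 around Zic2 and Zic5, 1 was higher and 2 were lower in GFP- cells. Clybl, a mitochondrial citramalyl-CoA lyase, was higher by 0.40 (adjusted p = 0.0486), the noncoding RNA 4930594M22Rik had -0.95 (adjusted p = 0.0464), and Tmtc4, an endoplasmic reticulum protein with tetratricopeptide repeats, had -0.44 (adjusted p = 0.0389). In that order they lie 57, 433 and 439 kb from the pair. 2610035F20Rik, which lies between Zic5 and Zic2, read 3.15 and 3.0 in GFP+ samples and 3.61 and 3.48 in GFP- samples, a difference of 0.47 ± 0.10 that did not pass (adjusted p = 0.0622). Pcca, next to Zic2 and coding for a subunit of propionyl-CoA carboxylase, had -0.01 (adjusted p = 0.929), and the noncoding Gm5089, next to Zic5, had -0.03 (adjusted p = 0.906). Their 95% intervals, -0.20 to 0.17 and -0.38 to 0.32, lay below those of Zic5. Gm5089 was dim, at 3.60 and 3.72 in GFP+ samples and 3.47 and 3.78 in GFP- samples. Both it and 2610035F20Rik lay under the lower quartile of every array, 4.22 to 4.29, so whether they were above background cannot be said.

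Of the 10 genes around Zic1 and Zic4 only Ctsh, the lysosomal protease cathepsin H, 1282 kb from the pair, passed. It read 6.36 and 6.92 in GFP+ samples and 9.13 and 9.37 in GFP- samples, a difference of 2.61 ± 0.21 (adjusted p = 0.0114). With 1 probe set taken for a gene, that of highest mean, 5.40% of all genes were higher and 2.63% lower, so the 2 higher and 2 lower of 21 neighbours are few to read against it. The 4 calls around both pairs fell to 1 without GFP+ replicate 1, to 2 without GFP+ replicate 2 and to 0 without GFP- replicate 1 or GFP- replicate 2.

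To place the Zic pattern among other genes, those whose centred values over the 4 arrays lay nearest to the highest-level probe set of each Zic gene were found. Nearest to Zic5 were the apolipoprotein gene Apoc1, Trap1a and Lemd3, an inner nuclear membrane protein, at root mean square distances of 0.029, 0.035 and 0.038, with 38 genes within 0.1. Nearest to Zic1 were the transcription factor genes Tal2 and Dmrta1 at 0.032 and 0.064 and Pcdh8, a protocadherin, at 0.086, and these were the 3 genes within 0.1. Zic2 had 2235 and Zic4 3486 genes within 0.1, headed by Cgref1, Fgb and Hmox1 and by Slc50a1, Enho and 1810019N24Rik. Zic2 and Zic4 changed little over the arrays, and a fixed limit of 0.1 then takes in many genes. It takes in few where values vary more, as for Zic5 and Zic1. The counts therefore do not show that the patterns of Zic5 and Zic1 are particular to them.

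The genes like Zic1 also had their higher value on the arrays numbered 1. Tal2 read 8.22 and 7.49 in GFP+ samples and 7.69 and 6.76 in GFP- samples. Its overlap between the populations follows from the choice too, and its difference of -0.63 did not pass (limma, adjusted p = 0.396). Zic1 1423477_at was among 56 probe sets, 0.124% of all, that were higher on replicate 1 by 0.5 or more in both populations, against 2 that were lower by as much. No other Zic probe set was among them.

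Of the 6 Gli and Glis genes, the closest relatives of the Zic genes by their zinc fingers, 3 were lower and none was higher in GFP- cells, with a median of -0.50. Over all genes 2.63% were lower and 5.40% higher, with a median of 0.05, and these shares are the background for each list that follows. Glis3 had -1.55 (adjusted p = 0.00881), Gli3, the main repressor of hedgehog targets, -0.77 (adjusted p = 0.018), and Gli1, an activator and target of the pathway, -0.48 (adjusted p = 0.046). Gli2 had -0.29 (adjusted p = 0.256), Glis2 -0.52 (adjusted p = 0.0502) and Glis1 -0.03 (adjusted p = 0.853), which did not pass.

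Among 14 measured genes of the dorsal neural tube and neural plate border, the places where Zic genes are best known, 1 was higher and none lower, with a median of 0.29. A single call of 14 is near the 5.40% of all genes that were higher, so it is no result about the list. The gene that passed was Tfap2c, an AP-2 factor of the border and of early embryonic cells, at 0.86 (adjusted p = 0.0124). Pax3, the partner of Zic1 at the border, had 0.32 (adjusted p = 0.132) and Msx3, a homeobox gene of the dorsal neural tube, 0.35 (adjusted p = 0.0983). Pax7 had 0.76 by its brightest probe set (limma, adjusted p = 0.248), which did not pass. Of the 2 Pax7 probe sets, the dimmer 1 was higher in GFP- cells at the same threshold. Of the 14, 3 lay under the lower quartile on all 4 arrays, and Gdf7, also on the list, was not measured by a probe set of its own. Of 7 neural crest genes 2 were higher and 1 lower, beside 5.40% and 2.63% of all genes, with a median of 0.04. Those that rose were Ets1 (2.70, adjusted p = 0.00549) and Foxd3 (1.93, adjusted p = 0.00963), which is also an epiblast factor, and the one that fell was Snai2 (-0.48, adjusted p = 0.0339), while Sox9 (-0.42, adjusted p = 0.0672) and Sox10 (-0.02, adjusted p = 0.911) did not pass.

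Bmp signaling sets dorsal identity and the border where Zic genes act. Of its 16 measured genes 3 were higher, 2 were lower and 11 did not pass, beside 5.40% higher and 2.63% lower over all genes, with a median of 0.14. The ligands Bmp4 (2.15, adjusted p = 0.0124) and Bmp2 (1.09, adjusted p = 0.0173) and the receptor Bmpr1b (0.53, adjusted p = 0.0437) rose, and the target genes Id2 (-1.10, adjusted p = 0.0115) and Id3 (-0.59, adjusted p = 0.0246) fell. The receptor Bmpr1a (-0.19, adjusted p = 0.177) and the target Id1 (-0.55, adjusted p = 0.146) did not pass.

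Zic2 is one of the genes whose loss gives holoprosencephaly, a failure of the forebrain to divide, and 16 others of that group were measured. Of these, 4 were higher and 3 lower, beside 5.40% and 2.63% of all genes, with a median of -0.06. Those that rose included Tdgf1, a coreceptor of Nodal (3.10, adjusted p = 0.00638), Foxh1, its nuclear effector (1.05, adjusted p = 0.0212), Nodal itself (0.74, adjusted p = 0.0465) and Tgif1, a corepressor (0.81, adjusted p = 0.0141). Those that fell were Six3, a rostral forebrain factor (-0.85, adjusted p = 0.0389), the Notch ligand Dll1 (-0.69, adjusted p = 0.0281) and Gas1, a hedgehog coreceptor (-0.62, adjusted p = 0.0334). Ptch1 (-0.06, adjusted p = 0.701) and Fgfr1 (-0.09, adjusted p = 0.612) did not pass, nor did Zic2. Of the 3 Ptch1 probe sets, 1 other than that of highest mean was lower in GFP- cells at the same threshold. Of the 3 Six3 probe sets, only that of highest mean passed.

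Of 9 genes described as partners or targets of Zic proteins, 2 were higher and 1 lower, beside 5.40% and 2.63% of all genes, with a median of 0.04. Nanog, a pluripotency factor, had 3.51 (adjusted p = 0.00761), Apoe, a lipid carrier, 0.85 (adjusted p = 0.0239) and Tcf7l2, a nuclear effector of Wnt, -0.96 (adjusted p = 0.0124). Chd4, a remodeling enzyme of the NuRD complex, had 0.02 (adjusted p = 0.931), and Ephb1, an axon guidance receptor, -0.13 (adjusted p = 0.401).

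**Figure D4:**
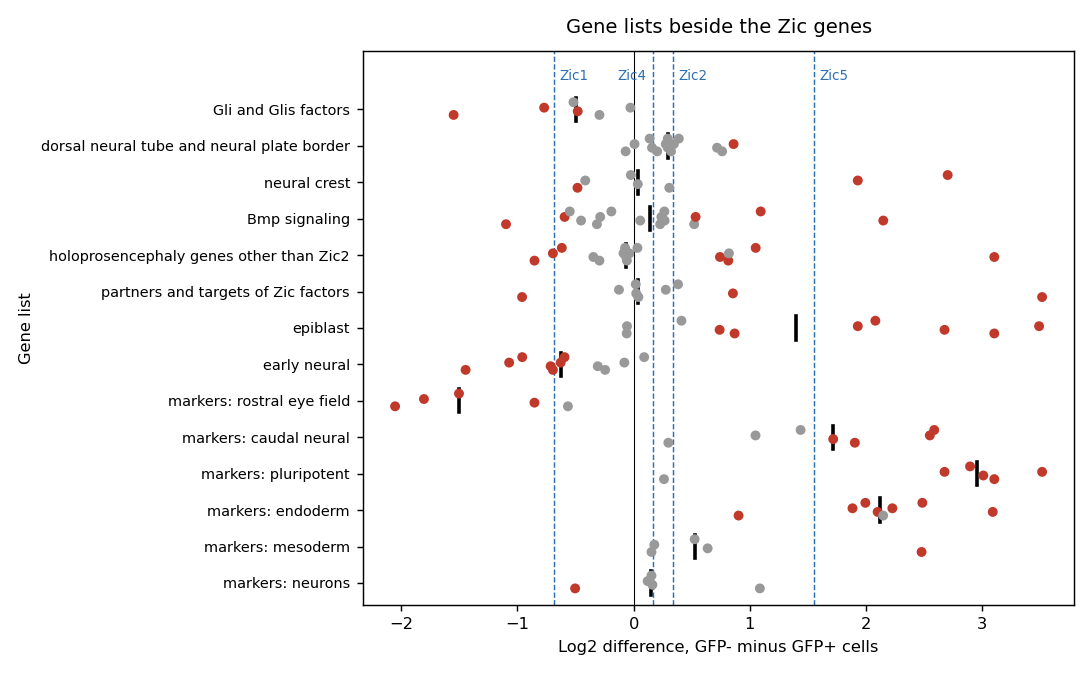
Log2 difference between GFP- and GFP+ cells (horizontal axis) of the genes in each list (vertical axis), each by its probe set of highest mean; red points passed at an adjusted p under 0.05, grey points did not, black bars are list medians and dashed lines mark the 4 Zic genes. Zic5 lies at 1.55, and the list medians run from -1.50 for the rostral eye field markers to 2.95 for the pluripotency markers.

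Zic2 is known from epiblast-stage cells as well as from the neural plate, and genes of both stages were counted. Of 10 epiblast genes 7 were higher and none lower, beside 5.40% and 2.63% of all genes, with a median of 1.40. Fgf5 (3.49, adjusted p = 0.0044) and Tdgf1 led the list, followed by Pou5f1 (2.67, adjusted p = 0.0044) and Utf1 (2.08, adjusted p = 0.00551). Of 11 early neural genes 7 were lower and none higher, beside the same shares of all genes, with a median of -0.63, led by Pax6 (-1.45, adjusted p = 0.0117), Hes5 (-1.07, adjusted p = 0.00928), Cdh2 (-0.96, adjusted p = 0.0267) and Sox1 (-0.71, adjusted p = 0.0321). Otx2 (-0.06, adjusted p = 0.7) and Lin28a (-0.06, adjusted p = 0.705) of the first list and Sox2 (-0.25, adjusted p = 0.148) and Sox11 (-0.31, adjusted p = 0.0941) of the second did not pass. Of the 6 Sox11 probe sets, 4 others than this brightest one were lower in GFP- cells at the same threshold. Of the 5 Pax6 probe sets, 2 were lower, the brightest included, and none was higher.

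Markers of several cell types moved with Zic5. The summed log2 level of 7 caudal neural markers was 32.9 to 34.1 in GFP+ and 42.6 to 47.5 in GFP- samples, and 4 of them were higher. That of 6 pluripotency markers was 40.9 to 41.9 in GFP+ and 56.6 to 57.2 in GFP- samples, with 5 higher, and that of 8 endoderm markers was 47.1 to 51.8 and 65.7 to 66.9, with 7 higher. Of 5 mesoderm markers only Eomes was higher, with sums of 26.6 to 27.0 and 29.9 to 31.7, and of 5 neuronal markers 1, Tubb3, was lower, with sums of 31.5 to 31.7 and 32.1 to 33.1. The part of these cell types in the Zic5 difference was not tested. Without GFP- replicate 1 or GFP- replicate 2, no gene of any of these lists passed, and without GFP+ replicate 1 the number that passed over all lists fell from 51 to 23.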

How the data were processed

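RNA from 4 samples, 2 Rax::GFP+ and 2 Rax::GFP-, was hybridized to Affymetrix mouse arrays. The authors summarized the arrays by RMA in R 2.13.0 and deposited log2 values, which were used without further normalization; the array number limits the precision. Of 45101 probe sets, 34958 carried 1 gene symbol, 932 several and 9211 none in the platform annotation. A 2-group model without a replicate block was fitted to all probe sets with limma 3.58.1 (R 4.3.3), with Benjamini-Hochberg adjustment over all of them and a threshold of 0.05, and was tested on simulated data. A gene in a list was represented by its probe set of highest mean. Named were all Zic probe sets, list genes past the threshold (the 4 largest differences where over 6 passed), up to 2 highest-level others, the 3 genes nearest to each Zic gene and pair neighbours. Whether replicate numbers pair the samples is not given in the labels. The paper describes duplicates from pooled aggregates but does not state which arrays share an experiment. The correlation of deviations was -0.05 over all probe sets, a value that cannot show an effect held by a small part of them. By 0.5 or more in both populations, 56 probe sets were higher and 2 lower on replicate 1. Members and lists were chosen with earlier results of these data known. Alternatives were a replicate block, Storey q-values, a filter at a log2 value of 5 on 2 arrays, median centring, quantile normalization, an intensity trend, each array left out, probe sets averaged per gene and, added after seeing the data, removal of 64 control probe sets.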

Additional observations from a re-analysis of the deposited data

How the results depend on the processing

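With 2 arrays a population, the calls depended on how the spread was estimated more than the differences did. Among the alternative values for single Zic probe sets and genes, 77 kept their direction and side of the threshold, 9 lost their call, 2 gained one and 1 turned its sign. With a replicate block, no probe set passed in either direction (0 higher and 0 lower; 11019 had an unadjusted p under 0.05 in limma), so that 0 Zic probe sets, 0 list genes and 0 neighbours passed, while the Zic5 differences were the same with adjusted p of 0.0567 to 0.0591. Storey q-values gave 2907 higher and 3256 lower probe sets in place of 1642 and 1725, and an intensity trend 3230 and 3732. With 1 array left out, the higher probe sets numbered 0 to 1059 and the lower 0 to 1919, list genes 0 to 39 in place of 51, neighbours 0 to 2 in place of 4, Zic probe sets that were higher 0 to 3 and that were lower 0 to 1. The counts of 0 over all probe sets arose without GFP- replicate 1 or GFP- replicate 2, where 7704 and 7697 probe sets had an unadjusted p under 0.05. The lone sample of a population was assumed to vary like the other group. Zic1 1439627_at ran from -0.80 to 0.15 and the difference between the pairs from 0.93 to 1.46. The filter on dim probe sets removed both Zic4 probe sets and Zic1 1439627_at, so it gave no value for the pairs. The causes were not tested.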

Other observations

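The 56 probe sets that, like Zic1 1423477_at, were higher on replicate 1 by 0.5 or more in both populations included 46 with 1 gene symbol, from 41 genes. Among these genes were several regional regulators of the neural plate, chosen for mention after their values were seen. Emx2, a forebrain homeobox gene, read 8.0 and 7.24 in GFP+ samples and 8.61 and 7.90 in GFP- samples. Otx1, a regulator of forebrain and midbrain, read 9.45 and 8.70 in GFP+ samples and 9.12 and 8.37 in GFP- samples. En2, of the midbrain and hindbrain boundary, read 4.63 and 4.07 in GFP+ samples and 6.03 and 4.77 in GFP- samples. The Wnt antagonist gene Dkk1 (1420360_at) read 8.70 and 7.63 in GFP+ samples and 9.37 and 8.61 in GFP- samples. The immediate early genes Fos and Egr2 were in the same set, with Fos at 12.60 and 10.69 in GFP+ samples and 10.58 and 9.13 in GFP- samples.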
